A study of Rattus norvegicus with 9 samples.

Results

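The genes described here are 75 of the 20645 genes in the deposited table. They were chosen by an annotation rule, with earlier results of these data known. The rule took genes in the KEGG pathway for ribosome biogenesis in eukaryotes and in neither the KEGG spliceosome nor the KEGG ribosome pathway. The pathway holds 78 genes of the table, and the 3 genes left out were Snu13, LOC100359574 and the RNA gene Rn5-8s. Of the 75 genes, 71 reached a mean of at least 1 FPKM (fragments corrected for transcript length and for how many fragments each library mapped) over the 9 libraries and were tested. The 4 genes under this limit were Rpp25, Nxf2, Nxf3 and Rasl2-9, which lay between 0 and 0.275 FPKM in every library.

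Ribosomes are built in the nucleolus, where RNA polymerase I transcribes a long precursor RNA that is modified, cut and folded while ribosomal proteins join it. Small nucleolar ribonucleoproteins (snoRNPs) guide the chemical modification of the precursor, the small subunit processome assembles around its first part, and separate sets of GTPases and ATPases build the large subunit. Both subunits leave the nucleus through Ran-dependent export and finish their maturation in the cytoplasm, and in secretory cells such as beta cells the output of this pathway sets how many ribosomes are available for making insulin.

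INS-1E cells, a clonal line from a rat insulinoma that makes insulin, were exposed for 24 h to fatty acid-free bovine serum albumin (BSA), to 0.5 mM palmitic acid (PA), or to 0.5 mM PA with 50 µM cyanidin-3-O-glucoside (C3G), an anthocyanin pigment of dark berries. Each of the 3 groups held 3 RNA libraries, all from unmodified cells of this 1 line, so no other line, islet or animal bears on these values. PA was compared with BSA to see what the fatty acid changed, and PA + C3G with PA to see what C3G changed in its presence. The libraries carry replicate numbers only, so the p-values measure the spread between these libraries.

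The promoters of 5 genes are shown here. Eligible genes had an edgeR adjusted p under 0.05 between PA and BSA, were matched by symbol, and had a window ending at their outermost RefSeq start. Those lower with PA were taken in order of p, smallest first. Rpp40 was the only eligible gene that was higher with PA. Each is the 250 bases before the transcription start in the RefSeq annotation of the rat assembly GRCr8, written 5′ to 3′ on the strand of the gene. Capitals mark CACGTG, the palindromic E-box that MYC family proteins bind, or CCGGAAG, a form of the site bound by ETS family factors, which reads CTTCCGG on the other strand. Wdr75 carries the E-box, Fbl carries 1 ETS form, Emg1 carries 2, and neither set of letters is in the windows of Xpo1 and Rpp40.
Wdr75, chr9:55394982-55395231, plus strand: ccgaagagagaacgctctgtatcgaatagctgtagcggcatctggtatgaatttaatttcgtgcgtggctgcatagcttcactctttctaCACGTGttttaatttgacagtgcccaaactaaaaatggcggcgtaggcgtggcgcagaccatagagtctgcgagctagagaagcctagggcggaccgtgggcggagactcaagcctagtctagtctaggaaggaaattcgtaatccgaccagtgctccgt
Fbl, chr1:92597157-92597406, plus strand: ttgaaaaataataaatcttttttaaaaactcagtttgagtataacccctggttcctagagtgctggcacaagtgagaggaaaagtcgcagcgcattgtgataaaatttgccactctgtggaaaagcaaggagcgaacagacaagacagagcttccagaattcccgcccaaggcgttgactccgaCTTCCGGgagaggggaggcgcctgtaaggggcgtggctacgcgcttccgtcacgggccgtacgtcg
Emg1, chr4:159203827-159204076, minus strand: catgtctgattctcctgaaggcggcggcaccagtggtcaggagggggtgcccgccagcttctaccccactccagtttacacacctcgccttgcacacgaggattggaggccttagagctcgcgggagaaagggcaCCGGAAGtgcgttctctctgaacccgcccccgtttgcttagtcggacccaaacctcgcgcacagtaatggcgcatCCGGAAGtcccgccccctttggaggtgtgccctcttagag
Xpo1, chr14:101434200-101434449, plus strand: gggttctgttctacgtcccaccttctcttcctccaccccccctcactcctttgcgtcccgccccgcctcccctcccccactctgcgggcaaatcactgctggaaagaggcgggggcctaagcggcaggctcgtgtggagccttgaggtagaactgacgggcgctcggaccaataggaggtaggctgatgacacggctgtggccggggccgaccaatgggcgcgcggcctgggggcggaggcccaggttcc
Rpp40, chr17:29152953-29153202, plus strand: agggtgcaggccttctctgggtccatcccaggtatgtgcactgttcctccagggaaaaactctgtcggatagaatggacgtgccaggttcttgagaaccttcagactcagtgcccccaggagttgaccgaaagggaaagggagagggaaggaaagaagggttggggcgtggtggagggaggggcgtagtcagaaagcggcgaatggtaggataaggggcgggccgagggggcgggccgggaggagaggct
With PA the transcripts of Wdr75, Fbl, Emg1 and Xpo1 were lower than with BSA and that of Rpp40 was higher. The values follow below with the other members of each complex.

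Depth ran from 45559993 to 66730721 estimated counts per library, and low counts piled up at multiples of 4, for a reason not given in the sources used here, and what this does to the sampling error was not tested. Of 11 beta cell markers, 10 were in the table and all 10 were over 1 FPKM. Their summed level was 49085 to 49793 FPKM with BSA, 22232 to 22740 with PA and 46648 to 52244 with PA + C3G. Of 14 markers of other cell types, 8 were in the table, and only Gcg, the glucagon gene, was over 1 FPKM, while the summed level of all 8 was 10.2 to 32.4 FPKM with BSA, 3.31 to 7.76 with PA and 5.63 to 23.5 with PA + C3G. Both sums moved with the treatments, and their part in the results on ribosome biogenesis genes was not tested.

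The 75 genes together made up 0.478% to 0.480% of all estimated counts in the BSA libraries, 0.422% to 0.424% in the PA libraries and 0.411% to 0.412% in the PA + C3G libraries. The groups did not overlap in this share, and it lay lowest with PA + C3G. On the FPKM scale, which corrects for gene length, the sum over the 75 genes was 2189 ± 15.9 with BSA, 1876 ± 10.4 with PA and 1854 ± 24.7 with PA + C3G (SD, n = 3). In this sum BSA lay above the other groups, but PA (1867 to 1887) and PA + C3G (1839 to 1882) overlapped. In bulk RNA, fewer transcripts per cell and a larger amount of other transcripts cannot be told apart in such a share. Among the 71 tested genes the median level was 19.2 FPKM and 57 were over 10 FPKM. Ran, the small GTPase that drives nuclear transport, was the most abundant at a mean of 256 FPKM over the 9 libraries, followed by Fbl at 88.9 FPKM and Eif6 at 81.6 FPKM.

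Groups were compared with the quasi-likelihood test of edgeR, and p-values were adjusted by the Benjamini-Hochberg method over all 12958 genes tested. A gene was called higher or lower at an adjusted p under 0.05. With PA, 11 of the 71 genes were higher than with BSA and 22 were lower, together 46.5% of them. Over all tested genes 51.0% were called, with 25.8% higher and 25.2% lower, against 15.5% and 31.0% of the ribosome biogenesis genes. The median log2 fold change was −0.06 for the 71 genes and 0.00 for all tested genes. The overall share of called genes was thus no higher than the background, and the share called lower was above the share called higher.

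Most of these changes were small. At a fold change above 2 with an unadjusted p under 0.05, 7.56% of all tested genes passed between PA and BSA, and Rexo5 was the only ribosome biogenesis gene among them. Between PA + C3G and PA 1.13% of all tested genes passed and none of the 71 did, although 24 of the 71 had an unadjusted p under 0.05 in that comparison with edgeR. Between PA + C3G and BSA 4.63% passed, and Rexo5 was again the only one of the 71.

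Between PA + C3G and PA, 7 of the 71 genes were called higher and 7 lower, where 21.2% of all tested genes were called, 11.1% of them higher and 10.2% lower. The shares for the ribosome biogenesis genes were 9.86% in each direction, near the background. This balance depended on the scaling. When every library was set to the same FPKM sum, 2 genes were higher and 20 were lower. The median log2 fold change was then −0.12 for the 71 genes and −0.09 for all tested genes. Before this change the medians were −0.03 and −0.001. The share of all tested genes called under this scaling was not counted. Relative to BSA, PA + C3G gave 4 genes higher and 21 lower, which is 5.63% and 29.6% of them, where 36.9% of all tested genes were called, 19.0% higher and 17.9% lower. The comparisons share libraries, PA in the first and second, PA + C3G in the second and the third, and BSA in the first and the third, so they are not independent.

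**Figure D1:**
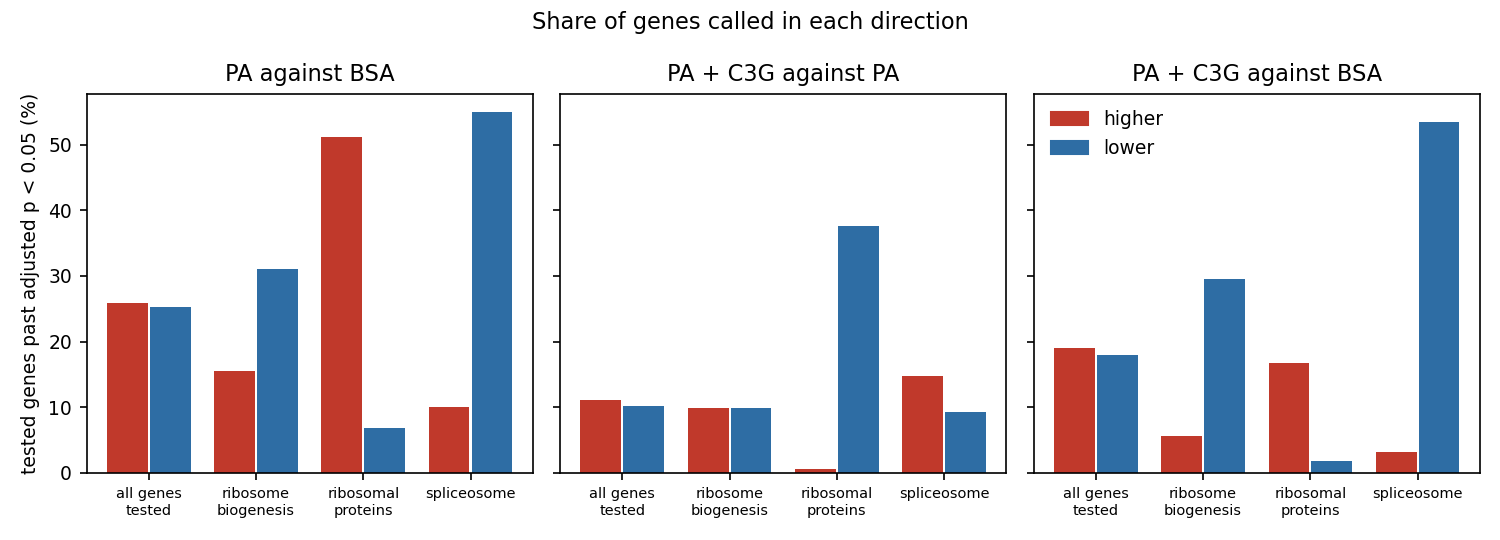
Percent of tested genes called higher (red) or lower (blue) at an adjusted p under 0.05 in each comparison, for all 12958 tested genes, the 71 ribosome biogenesis genes, the 162 genes of the KEGG ribosome pathway and the 129 of the spliceosome pathway. With PA against BSA the ribosome biogenesis genes had 15.5% higher and 31.0% lower, and the ribosome pathway 51.2% higher and 6.79% lower.

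The plot of called shares sets the ribosome biogenesis genes beside the genes of the KEGG ribosome and spliceosome pathways. With PA, 83 of the 162 tested genes of the KEGG ribosome pathway, mostly ribosomal proteins, were higher than with BSA and 11 were lower, with a median log2 fold change of 0.26. Between PA + C3G and PA, 1 was higher and 61 were lower, with a median of −0.19, where the median of the ribosome biogenesis genes was −0.03. Of the 129 tested spliceosome genes, 13 were higher and 71 lower with PA than with BSA, with a median of −0.18. The differences between these lists were not tested.

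The members are described next in the order in which they act, and the plot of fold changes by role gives all of them at once. The counts of called genes in each role stand against the background over all tested genes. That background was 25.8% higher and 25.2% lower between PA and BSA, and 11.1% higher and 10.2% lower between PA + C3G and PA.

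**Figure D2:**
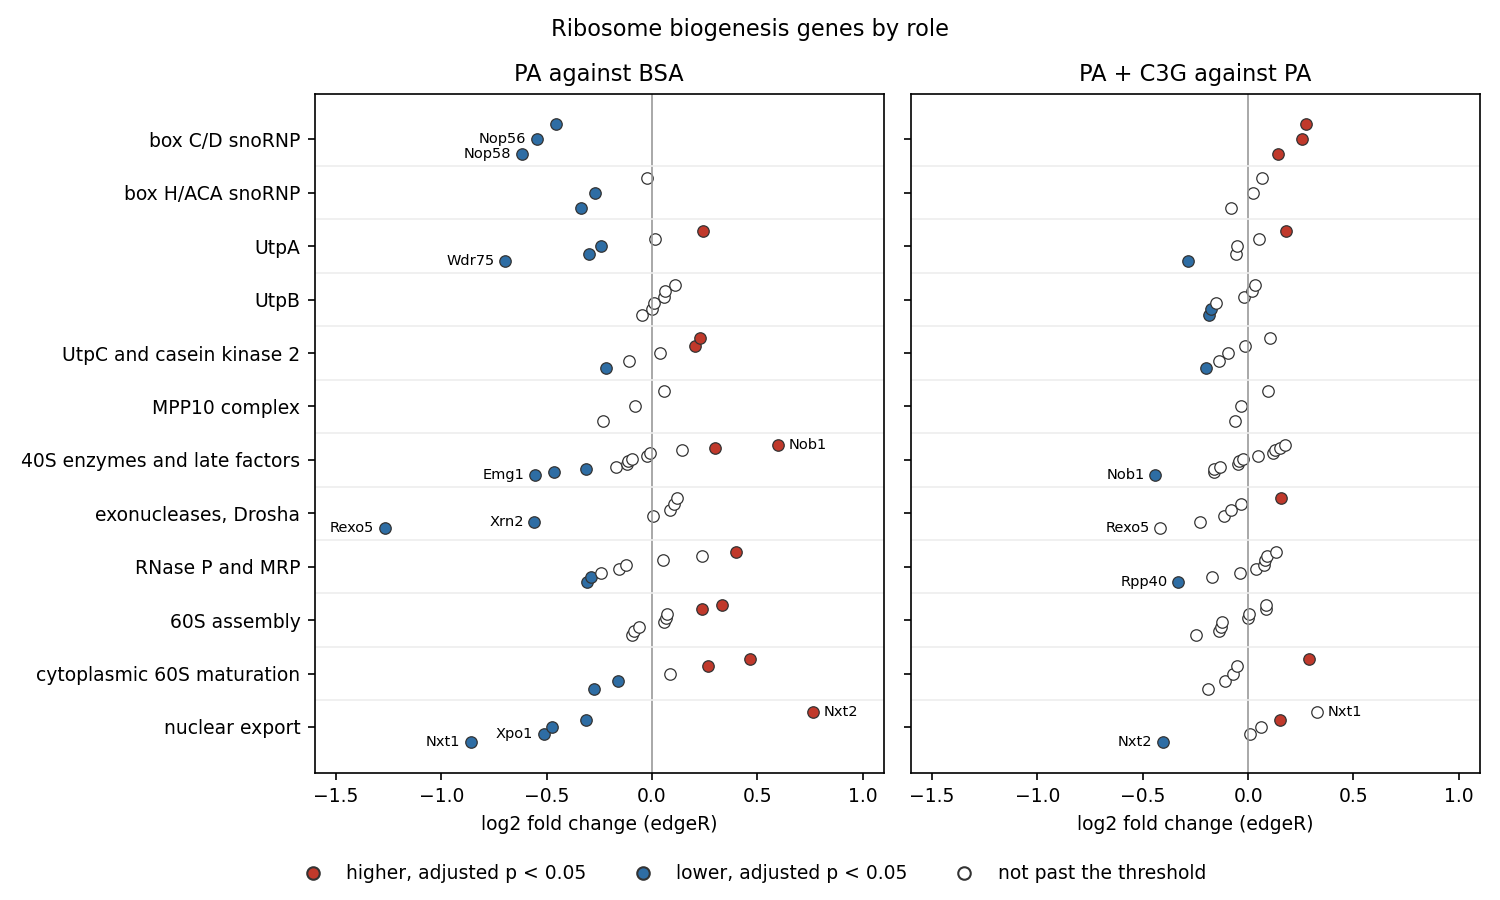
Log2 fold change (x axis, edgeR) of 69 tested ribosome biogenesis genes in 12 role groups (y axis), for PA against BSA (left) and PA + C3G against PA (right), with 1 point per gene. Red points are higher and blue points lower at an adjusted p under 0.05, and the names mark changes of over 0.5 on the left and over 0.3 on the right. Nhp2 and its near-copy LOC103690013 are not drawn. All 3 box C/D genes are blue on the left and red on the right, and the 6 UtpB genes are white on the left.

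The 3 box C/D snoRNP proteins in the list were lower with PA than with BSA and higher with PA + C3G than with PA. These particles add methyl groups to the ribose of ribosomal RNA, with Fbl (fibrillarin) as the methyltransferase and Nop56 and Nop58 as the paired scaffold proteins. Fbl (ENSRNOG00000019229) stood at 107 FPKM in each of the BSA libraries, at 74.9, 79.0 and 76.8 FPKM with PA, and at 82.8, 82.3 and 82.9 FPKM with PA + C3G. The groups did not overlap, and PA + C3G lay between the other groups and closer to PA. The log2 fold change of Fbl was −0.45 (SE 0.03, edgeR adjusted p 4.15e-06) for PA against BSA, 0.14 (SE 0.03, adjusted p 0.0192) for PA + C3G against PA, and −0.31 (SE 0.03, adjusted p 8.78e-05) for PA + C3G against BSA. Fbl overlaps Dyrk1b on the same strand, and how the authors assigned shared reads was not given in the sources used here.

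Nop56 (ENSRNOG00000007128) stood at 72.9, 76.0 and 75.6 FPKM with BSA, 52.3, 49.2 and 49.7 with PA, and 60.2, 56.9 and 61.1 with PA + C3G. All PA libraries lay below all PA + C3G libraries, which lay below all BSA libraries. Nop56 was 1.46-fold lower with PA than with BSA (log2 fold change −0.55, SE 0.04, edgeR adjusted p 4.34e-06), and 1.21-fold higher with PA + C3G than with PA (0.27, SE 0.04, adjusted p 0.00224). Nop58 (ENSRNOG00000016486) followed the same order, at 60.4, 58.2 and 66.7 FPKM with BSA, 39.2, 38.3 and 41.2 with PA, and 50.5, 41.8 and 45.9 with PA + C3G. Nop58 changed by −0.62 on the log2 scale (SE 0.07, edgeR adjusted p 8.24e-05) for PA against BSA and 0.26 (SE 0.07, adjusted p 0.0348) for PA + C3G against PA. With PA + C3G all 3 genes were still below BSA, Nop56 by −0.27 and Nop58 by −0.36 on the log2 scale.

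The rise with C3G was firm for Nop56 alone among these genes. Nop56 passed the threshold in all 19 alternatives, with edgeR, DESeq2 or limma adjusted p between 3.90e-06 and 0.0136. Fbl passed in 14 of 19, with adjusted p between 0.0127 and 0.311, and the highest value came from setting each library to the same FPKM sum, where its log2 fold change was 0.05. Nop58 passed in 11 of 19, with adjusted p between 0.00540 and 0.121. The calls of Fbl were also lost without PA replicate 1 or 3 or PA + C3G replicate 1 or 3, with log2 fold changes between 0.12 and 0.14, and those of Nop58 without any 1 of the 3 PA libraries or PA + C3G replicate 1 or 3, with values between 0.18 and 0.28. For PA against BSA all 3 genes passed in every alternative.

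The box H/ACA particles, which turn uridines of ribosomal RNA into pseudouridine, gave 2 of 5 genes lower with PA than with BSA and none higher. Nop10 (ENSRNOG00000005184), a small core protein, stood at 72.5, 81.7 and 82.4 FPKM with BSA, 58.7, 59.6 and 66.2 with PA, and 66.4, 60.2 and 56.2 with PA + C3G. Gar1, another core protein, stood at 16.2, 15.4 and 17.0 FPKM with BSA, 13.5, 14 and 12 with PA, and 13.3, 14 and 13 with PA + C3G. For both genes the BSA libraries lay above all others, and the PA and PA + C3G libraries overlapped. The log2 fold change for PA against BSA was −0.33 (SE 0.08, edgeR adjusted p 0.00496) for Nop10 and −0.27 (SE 0.08, adjusted p 0.0195) for Gar1, and the Gar1 call was lost without BSA replicate 3 (−0.24) or without PA replicate 3 (−0.20).

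Dkc1 (dyskerin), the pseudouridine synthase itself, was not called by edgeR in any comparison. It stood at 30.8, 32.8 and 31.8 FPKM with BSA, 29.9, 29.9 and 32.5 with PA, and 27.0, 29.8 and 28.3 with PA + C3G, so its BSA and PA libraries overlapped. Its log2 fold change was −0.02 (SE 0.05, edgeR adjusted p 0.741) for PA against BSA and −0.08 (SE 0.05, adjusted p 0.305) for PA + C3G against PA. The latter passed in 1 of 19 alternatives, with adjusted p between 0.0438 and 0.649, and PA + C3G against BSA (−0.10) in 3 of 19, with adjusted p between 0.0346 and 0.324, lower with PA + C3G in each.

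**Figure D3:**
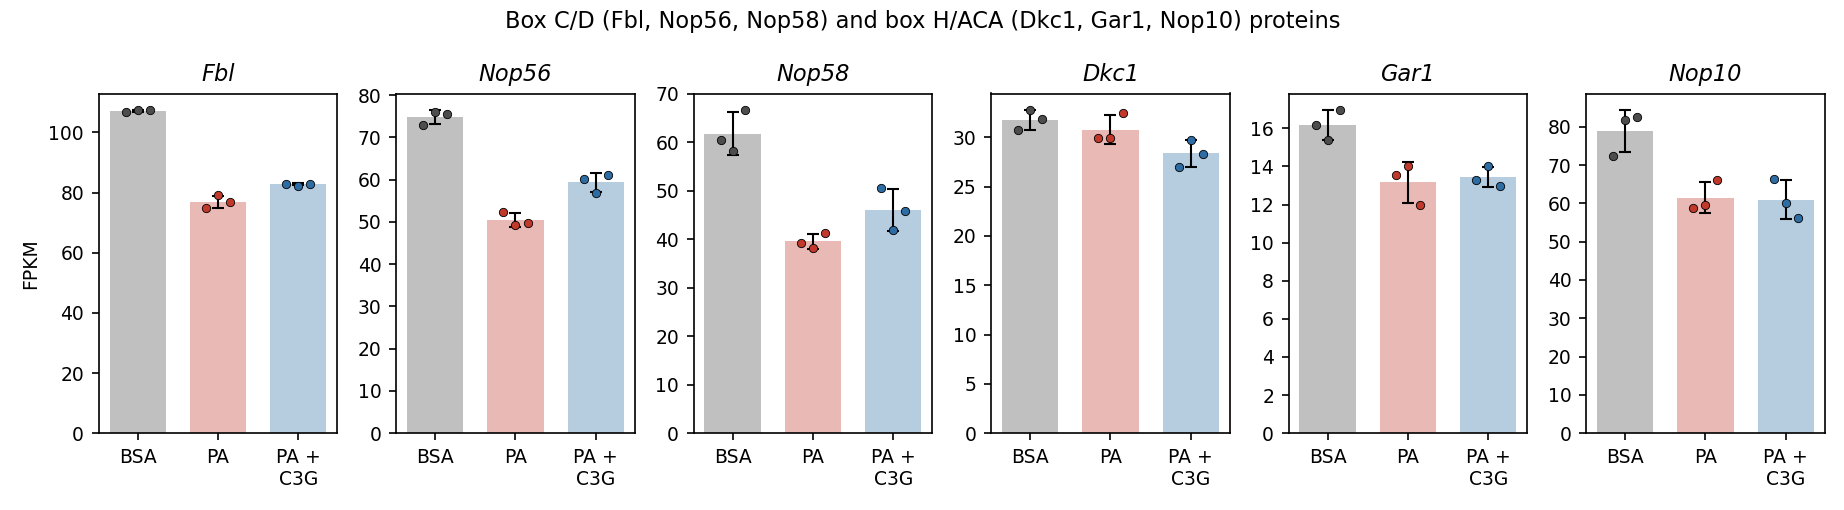
Level in FPKM (y axis, from 0) of 6 snoRNP genes in the BSA, PA and PA + C3G groups. Bars are means, error bars the SD and points the 3 libraries of each group. The PA points of Fbl, Nop56 and Nop58 lie below all points of the other groups, while the points of Dkc1 lie between 27.0 and 32.8 FPKM.

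The plot of snoRNP genes leaves out Nhp2, the fourth core H/ACA protein, because its values could not be separated from those of a near-copy. The table lists Nhp2 and LOC103690013, annotated as H/ACA subunit 2, at different places on chromosome 10. The copy was at 0 in 3 libraries, Nhp2 was at 0 in 2, and both were above 0 in the other 4, so which of the pair received counts differed between libraries of the same group. Summed over the pair, the level was 34.0, 42.5 and 40.1 FPKM with BSA, 28.0, 29.3 and 14.7 with PA, and 20.2, 27.2 and 13.5 with PA + C3G. BSA lay above the other groups, but the single-listed libraries were also the low ones within each of the groups, BSA among them. The sum was tested as 1 gene, a choice made after seeing the data, and gave a log2 fold change of −0.57 (SE 0.27, edgeR adjusted p 0.106) for PA against BSA, −0.24 (SE 0.27, adjusted p 0.577) for PA + C3G against PA and −0.81 (SE 0.27, adjusted p 0.0402) for PA + C3G against BSA.

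The small subunit processome is the large particle that forms on the first part of the precursor RNA, and its modules are given one by one. The differences between the modules were not tested. Of the 5 tested UtpA genes, 3 were lower with PA and 1 was higher, where 25.2% and 25.8% of all tested genes were. The UtpA module also acts in transcription by RNA polymerase I. Wdr75 (ENSRNOG00000003825), whose promoter is shown above, was the most changed. It stood at 48.1, 43.1 and 46.2 FPKM with BSA, 27.3, 27.2 and 28.8 with PA, and 30.7, 30.2 and 31.0 with PA + C3G. The groups did not overlap, and PA + C3G lay just above PA. Wdr75 was 1.62-fold lower with PA than with BSA (log2 fold change −0.70, SE 0.05, edgeR adjusted p 1.46e-06) and 1.13-fold higher with PA + C3G than with PA (0.18, SE 0.05, adjusted p 0.0217). The last call passed in 12 of 19 alternatives, with adjusted p between 0.00961 and 0.226, and was lost without PA replicate 1 or 2 or PA + C3G replicate 1 or 3, at log2 fold changes from 0.16 to 0.17.

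Wdr43 was lower with PA by −0.30 (SE 0.06, edgeR adjusted p 0.00149), at 27.6 ± 0.614 FPKM with BSA and 22.1 ± 1.81 with PA (SD, n = 3). LOC108348069, annotated as HEAT repeat-containing protein 1, was lower by −0.24, at 3.74 ± 0.220 against 3.11 ± 0.0939 FPKM. It overlaps other genes on both strands, and its call was lost without BSA replicate 1 or 3 or PA replicate 2 or 3 (−0.24 to −0.22). The call was also lost with both limma fits (limma adjusted p 0.0776 and 0.0817) and with equal FPKM sums (edgeR adjusted p 0.0583). Utp15 went the other way, at 16.0, 15.1 and 15.1 FPKM with BSA, 17.9, 16.9 and 19.1 with PA, and 14.6, 12.9 and 15.5 with PA + C3G. Every PA library was above every library of the other groups, which overlapped each other. The log2 fold change of Utp15 was 0.24 (SE 0.07, edgeR adjusted p 0.0163) for PA against BSA and −0.28 (SE 0.07, adjusted p 0.0195) for PA + C3G against PA. The first call was lost without BSA replicate 2 or 3 or PA replicate 3 (0.20 to 0.22), and the second without PA replicate 3 (−0.24). Utp4 was not called by edgeR in any comparison, with a log2 fold change of 0.01 for PA against BSA.

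None of the 6 UtpB genes (Pwp2, Tbl3, Utp6, Utp18, Wdr3, Wdr36) passed between PA and BSA, with log2 fold changes from −0.04 to 0.11 in edgeR and no unadjusted p under 0.05, and DESeq2 and limma also called 0. None of the 3 MPP10 complex genes (Mphosph10, Imp3, Imp4) passed in any comparison with any of these tools, with log2 fold changes from −0.23 to 0.06 for PA against BSA and no unadjusted p under 0.05 in edgeR. Imp4, the most abundant of the 3, stood at 32.2 ± 1.13 FPKM with BSA, 32.9 ± 1.5 with PA and 30.8 ± 1.42 with PA + C3G (SD, n = 3). Utp18, the most abundant UtpB gene, stood at 27.4 ± 3.29, 26.1 ± 0.539 and 26.0 ± 1.24 FPKM in the same order. In these modules no difference between PA and BSA was detectable at this depth and number of libraries.

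Between PA + C3G and PA, 2 UtpB genes were called, both lower with PA + C3G. Wdr3 stood at 16.0, 16.6 and 15.9 FPKM with BSA, 16.2, 16.5 and 17.1 with PA, and 14.1, 13.9 and 14.6 with PA + C3G. The PA + C3G libraries lay below all others, and the BSA and PA libraries overlapped. Wdr3 was lower with PA + C3G than with PA by −0.19 (SE 0.04, edgeR adjusted p 0.0105), a call that passed in all 19 alternatives with adjusted p between 0.00144 and 0.0452, and lower than with BSA by −0.13 (adjusted p 0.0346). The call against BSA failed in 6 of 19 alternatives, with adjusted p between 0.00570 and 0.0910, among them DESeq2 and leaving out BSA replicate 2 (−0.12), PA + C3G replicate 1 (−0.13) or replicate 2 (−0.12). Pwp2 was lower with PA + C3G than with PA by −0.18 (SE 0.05, adjusted p 0.0464), at 12.1 ± 0.813 against 10.5 ± 0.232 FPKM. The Pwp2 call was lost without BSA replicate 1 or 3, PA replicate 2 or 3, or any 1 of the PA + C3G libraries, at log2 fold changes from −0.20 to −0.12. It was also lost with the replicate block (adjusted p 0.0504 in edgeR), with no filter (0.0727) and with only the compared groups in the fit (0.0846), within a range of 0.0504 to 0.131 over the refits that lost it.

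The UtpC module and casein kinase 2, which phosphorylates processome proteins among many other targets, moved in both directions. Nol6, an UtpC scaffold protein, stood at 18.0, 18.2 and 18.0 FPKM with BSA, 19.9, 21.1 and 20.5 with PA, and 17.2, 17.2 and 17.7 with PA + C3G. All PA libraries were above all others, and in FPKM PA + C3G lay below BSA, while the fit on TMM-scaled counts gave a log2 fold change of 0.01 (edgeR adjusted p 0.916) between the latter groups. Nol6 was higher with PA than with BSA by 0.21 (SE 0.04, edgeR adjusted p 0.00110) and lower with PA + C3G than with PA by −0.20 (SE 0.04, adjusted p 0.00514), and both calls passed in all 19 alternatives. For casein kinase 2, the catalytic subunit gene Csnk2a2 was higher with PA (0.23, SE 0.05, adjusted p 0.00214) and the regulatory subunit gene Csnk2b was lower (−0.22, SE 0.05, adjusted p 0.00740). Csnk2a1, the other catalytic subunit gene and the most abundant of the module, stood at 77.0 ± 4.15 FPKM with BSA and 70.1 ± 1.06 with PA (SD, n = 3) and was not called (−0.11, adjusted p 0.0556). It passed in 5 of 19 alternatives, with adjusted p between 0.00606 and 0.171. For PA + C3G against BSA, Csnk2a1 was called lower (−0.13, edgeR adjusted p 0.0431), a call that failed in 9 of 19 alternatives. Csnk2a2 was called higher there (0.13, edgeR adjusted p 0.0458), a call lost with DESeq2 and both limma fits, among other refits. Rrp7a, the remaining UtpC gene, was not called by edgeR in any comparison, but it was lower with PA + C3G than with PA in 6 alternatives and than with BSA in 4, limma among them in both.

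Of 12 tested enzymes and late factors of the small subunit, 2 were higher and 3 were lower with PA than with BSA. Nob1 (ENSRNOG00000021890), the endonuclease that makes the final cut of the small subunit RNA in the cytoplasm, had the largest rise of this group. It stood at 24.5, 26.1 and 24.6 FPKM with BSA, 35.7, 37.8 and 38.4 with PA, and 24.6, 28.6 and 27.3 with PA + C3G. All PA libraries lay above all others, and BSA and PA + C3G overlapped. Nob1 was 1.51-fold higher with PA than with BSA (log2 fold change 0.60, SE 0.06, edgeR adjusted p 2.73e-05) and 1.36-fold lower with PA + C3G than with PA (−0.44, SE 0.06, adjusted p 0.00124), and both calls passed in all 19 alternatives. PA + C3G against BSA gave 0.16 (SE 0.06, adjusted p 0.0695), which passed in 2 of 19 alternatives, with adjusted p between 0.0191 and 0.266.

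Rcl1, a factor of early precursor cleavage, was also higher with PA (0.30, SE 0.05, edgeR adjusted p 0.000849), at 17.7 ± 0.554 FPKM with BSA and 21.4 ± 0.733 with PA (SD, n = 3). PA + C3G against PA gave −0.16 for Rcl1 (SE 0.05, edgeR adjusted p 0.0512). That change passed in 7 alternatives, DESeq2 and both limma fits among them. Emg1 (ENSRNOG00000012828), the methyltransferase for a modified pseudouridine of the small subunit RNA, stood at 22.0, 24.3 and 23.3 FPKM with BSA, 14.5, 16.4 and 15.7 with PA, and 16.9, 15.6 and 16.7 with PA + C3G. The BSA libraries lay above all others, and PA and PA + C3G overlapped. Emg1 was 1.47-fold lower with PA than with BSA (log2 fold change −0.55, SE 0.07, edgeR adjusted p 9.24e-05), and the comparison of PA + C3G with PA gave 0.12 (SE 0.07, adjusted p 0.255). Emg1 overlaps Lpcat3 on the opposite strand, at a mean of 121 FPKM, and reads of the pair can only be told apart if the counting used the strand, which is not given in the sources used here.

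Riok2, a kinase of late small subunit maturation, was lower with PA by −0.46 (SE 0.08, edgeR adjusted p 0.000722), at 11.6 ± 0.601 FPKM with BSA and 8.29 ± 0.353 with PA (SD, n = 3), while its relative Riok1 gave −0.01 (adjusted p 0.940). Ak6, an adenylate kinase that binds a small subunit protein, was lower by −0.31 (SE 0.08, adjusted p 0.00755), and it shares its locus and strand with Taf9. Tcof1 (treacle), which links RNA polymerase I to precursor processing, was called by edgeR only in PA + C3G against BSA, where it was lower by −0.27 (SE 0.05, adjusted p 0.00253). It was also lower with PA + C3G than with PA in 6 alternatives (−0.25 to −0.16), and with PA than with BSA when PA replicate 2 was left out (−0.16). The other 6 genes of this group, Bms1, Fcf1, Nat10, Riok1, Utp14a and the Utp14-like locus AABR07068127, were not called in any comparison with edgeR. Of these, Nat10 was lower with PA + C3G than with BSA in 7 alternatives, Utp14a was higher with PA than with BSA without BSA replicate 2 (0.23), and Bms1 was higher with PA + C3G than with PA under the replicate block (0.13).

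**Figure D4:**
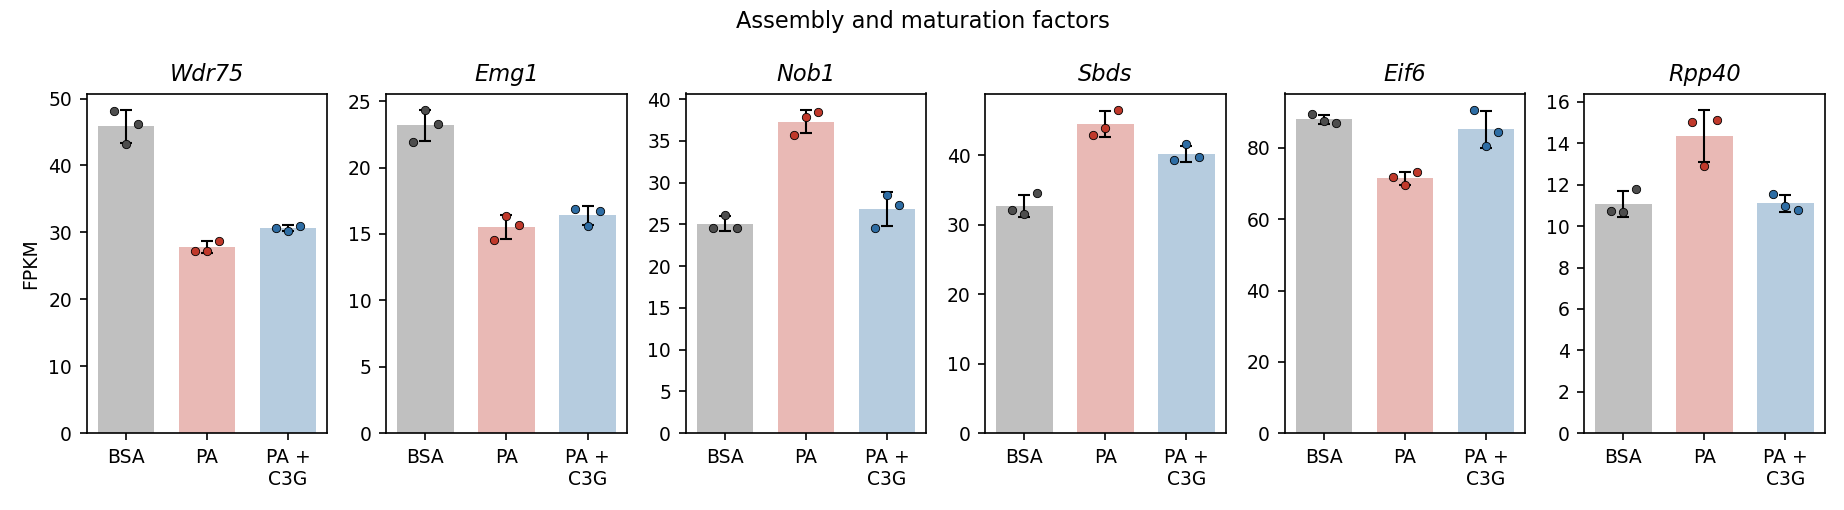
Level in FPKM (y axis, from 0) of 6 assembly and maturation genes in the BSA, PA and PA + C3G groups. Bars are means, error bars the SD and points the 3 libraries of each group. Nob1 and Rpp40 are highest with PA, Wdr75 and Emg1 are highest with BSA, and Eif6 is lowest with PA.

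The precursor RNA is cut and trimmed by nucleases, and 2 of the 6 exonuclease and RNase III genes were lower with PA. Rexo5 (ENSRNOG00000014513), an exonuclease that trims the ends of ribosomal and small nucleolar RNAs, had the largest change of all 69 genes outside the Nhp2 pair. It stood at 3.89, 3.6 and 3.6 FPKM with BSA, 1.75, 1.29 and 1.48 with PA, and 0.960, 1.42 and 0.910 with PA + C3G. The BSA libraries lay above all others, and the PA and PA + C3G libraries overlapped. Rexo5 was 2.41-fold lower with PA than with BSA (log2 fold change −1.27, SE 0.19, edgeR adjusted p 0.000350) and 3.22-fold lower with PA + C3G than with BSA (−1.69, SE 0.19, adjusted p 9.85e-05). PA + C3G against PA gave −0.42 (SE 0.19, adjusted p 0.151), which passed only without PA + C3G replicate 2 (−0.65) among 18 alternatives, with adjusted p between 0.0243 and 0.357. It is also among the least abundant members, so its values rest on fewer fragments.

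Xrn2, the nuclear exonuclease that removes spacer RNA from the other end, stood at 50.1, 49.4 and 49.4 FPKM with BSA, 32.2, 34.7 and 32.4 with PA, and 37.7, 35.3 and 34.9 with PA + C3G. The groups did not overlap. Xrn2 was 1.47-fold lower with PA than with BSA (log2 fold change −0.56, SE 0.05, edgeR adjusted p 6.15e-06). It was higher with PA + C3G than with PA by 0.16 (SE 0.05, adjusted p 0.0365), a call that passed in 7 of 19 alternatives, with adjusted p between 0.0179 and 0.278. That call was lost without BSA replicate 1 or 3, PA replicate 1 or 3, or any 1 of the PA + C3G libraries, at log2 fold changes from 0.12 to 0.18. Xrn1, its cytoplasmic relative, and Rexo1, Rexo2 and Drosha were not called by edgeR in any comparison, with log2 fold changes from 0.01 to 0.12 for PA against BSA. Drosha was lower with PA + C3G than with PA in 3 alternatives, limma among them, and Xrn1 in 1, and Drosha was higher with PA than with BSA in 2.

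RNase P and RNase MRP share most of their protein subunits and act on transfer RNA and ribosomal RNA precursors. Of the 8 tested subunit genes, 1 was higher and 2 were lower with PA. Rpp40, whose promoter above holds neither marked motif, stood at 10.8, 10.7 and 11.8 FPKM with BSA, 15.1, 12.9 and 15.1 with PA, and 11.6, 11 and 10.8 with PA + C3G. The PA libraries lay above all others, and BSA and PA + C3G overlapped. Rpp40 was 1.32-fold higher with PA than with BSA (log2 fold change 0.40, SE 0.09, edgeR adjusted p 0.00362) and 1.26-fold lower with PA + C3G than with PA (−0.33, SE 0.09, adjusted p 0.0236). The second call passed in 15 of 19 alternatives, with adjusted p between 0.00492 and 0.0911, and was lost without PA replicate 1 or 3 or PA + C3G replicate 2 or 3, at log2 fold changes from −0.33 to −0.30.

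Rpp30 stood at 24.8, 24.1 and 24.5 FPKM with BSA, 17.9, 19.9 and 20.6 with PA, and 18.3, 15.9 and 16.3 with PA + C3G, with BSA above both other groups. Its log2 fold change was −0.31 (SE 0.08, edgeR adjusted p 0.00751) for PA against BSA and −0.48 (SE 0.08, adjusted p 0.000913) for PA + C3G against BSA. Pop1, the largest protein subunit, was lower with PA by −0.29 (SE 0.10, adjusted p 0.0360), at 4.32 ± 0.259 against 3.48 ± 0.0677 FPKM (SD, n = 3), and this call was lost without BSA replicate 1 or 3 or any 1 of the PA libraries (−0.31 to −0.26). The Pop1 call was also lost with no filter (edgeR adjusted p 0.0694) and with equal FPKM sums (0.0501). Pop7, the most abundant subunit gene, stood at 47.4 ± 3.21 FPKM with BSA and 41.8 ± 2.56 with PA and was not called (−0.16, adjusted p 0.0726 in edgeR), but passed in 3 of 19 alternatives, with both limma fits and without PA replicate 3 (−0.20), at adjusted p between 0.0363 and 0.195. Pop4, Pop5, Rpp25l and Rpp38 were not called by edgeR in any comparison, and without BSA replicate 1 Pop4 was called lower with PA (−0.38) and with PA + C3G (−0.34) than with BSA.

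Among the large subunit assembly factors no gene was called lower with PA than with BSA by edgeR, DESeq2 or limma over all libraries. Of the 8 genes, Gnl2, a GTPase of nucleolar large subunit assembly, was higher by 0.33 (SE 0.07, edgeR adjusted p 0.00203), at 14.9 ± 0.865 FPKM with BSA, 18.5 ± 0.996 with PA and 16.4 ± 1.12 with PA + C3G (SD, n = 3). Spata5, an ATPase that recycles a large subunit factor, was higher by 0.24 (SE 0.08, adjusted p 0.0312), a call lost without any 1 of the BSA or PA libraries (0.19 to 0.25). Gnl3 (nucleostemin), its relative Gnl3l, Gtpbp4, Nvl, Rbm28 and AABR07047789, annotated as the ATPase midasin, were not called by edgeR in any comparison, with log2 fold changes from −0.10 to 0.07 for PA against BSA, and Gtpbp4 was called lower with PA and with PA + C3G without BSA replicate 2 (−0.18 in each). Gnl3l, the most abundant of the group, stood at 50.2 ± 1.14 FPKM with BSA, 47.3 ± 1.06 with PA and 48.9 ± 1.17 with PA + C3G. None of the 8 was called between PA + C3G and PA, where 2 had an unadjusted p under 0.05 in edgeR and DESeq2 and limma each called 1 lower.

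In the cytoplasm the large subunit sheds its last assembly factors, and 4 of the 5 genes for this step were called between PA and BSA, in both directions. Over all tested genes 51.0% were called. Eif6 (ENSRNOG00000049497), which keeps the large subunit from joining the small one too early, stood at 89.6, 87.5 and 87.1 FPKM with BSA, 71.7, 69.5 and 73.2 with PA, and 90.7, 80.4 and 84.5 with PA + C3G. The PA libraries lay below all others, and BSA and PA + C3G overlapped. Eif6 was 1.21-fold lower with PA than with BSA (log2 fold change −0.28, SE 0.05, edgeR adjusted p 0.000891) and 1.22-fold higher with PA + C3G than with PA (0.29, SE 0.05, adjusted p 0.00295), and both calls passed in all 19 alternatives. PA + C3G against BSA gave 0.01 (SE 0.05, adjusted p 0.844).

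Sbds and Efl1 encode the protein pair that releases Eif6 from the subunit, and both were higher with PA. Sbds stood at 32.0, 31.6 and 34.5 FPKM with BSA, 42.9, 43.9 and 46.5 with PA, and 39.3, 41.5 and 39.7 with PA + C3G. The 3 groups did not overlap, with PA highest. The log2 fold change of Sbds was 0.47 (SE 0.05, edgeR adjusted p 3.88e-05) for PA against BSA, −0.11 (SE 0.05, adjusted p 0.160) for PA + C3G against PA and 0.36 (SE 0.05, adjusted p 0.000388) for PA + C3G against BSA. Efl1 was higher with PA by 0.27 (SE 0.08, adjusted p 0.0166), at 5.87 ± 0.477 FPKM with BSA and 6.95 ± 0.341 with PA (SD, n = 3), a call lost without BSA replicate 3 (0.20) or PA replicate 3 (0.24). Nmd3, the adaptor that ties the large subunit to its exporter, stood at 23.2 ± 0.436, 20.4 ± 0.68 and 18.9 ± 0.355 FPKM with BSA, PA and PA + C3G, and was lower with PA by −0.16 (SE 0.05, adjusted p 0.0134) and lower with PA + C3G than with BSA by −0.24 (SE 0.05, adjusted p 0.00286). Lsg1, the GTPase that releases Nmd3, was not called by edgeR in any comparison.

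All 5 tested nuclear export genes were called between PA and BSA, 4 lower and 1 higher, where 51.0% of all tested genes were called. Ran (ENSRNOG00000000938) stood at 316, 307 and 327 FPKM with BSA, 225, 219 and 227 with PA, and 241, 218 and 224 with PA + C3G. Xpo1 (exportin 1), which carries both pre-ribosomal subunits out of the nucleus, stood at 64.7, 59.7 and 62.5 FPKM with BSA, 45.6, 40.8 and 42.3 with PA, and 42.1, 42.5 and 41.6 with PA + C3G. For both genes BSA lay above the other groups, which overlapped each other. Ran was lower with PA by −0.48 (SE 0.04, edgeR adjusted p 1.68e-05) and Xpo1 by −0.51 (SE 0.05, adjusted p 1.30e-05). With PA + C3G against PA the values were 0.06 (SE 0.04, adjusted p 0.363) for Ran and 0.01 (SE 0.05, adjusted p 0.911) for Xpo1.

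Nxf1 pairs with Nxt1 or Nxt2 to carry messenger RNA through the nuclear pore, and the genes of the alternative partners moved in opposite directions. Nxt1 (ENSRNOG00000004700, chromosome 3) stood at 29.4, 29.5 and 28.8 FPKM with BSA, 15.8, 13.3 and 18.5 with PA, and 18.7, 22.0 and 17.5 with PA + C3G. Nxt2 (ENSRNOG00000019168, chromosome X) stood at 15.3, 16.1 and 15.3 FPKM with BSA, 26.4, 25.0 and 26.6 with PA, and 20.5, 18.0 and 18.9 with PA + C3G. In FPKM, which is scaled to length, Nxt1 was thus above Nxt2 in every BSA library and below it in every PA library. With PA + C3G the libraries of the pair overlapped.

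Nxt1 was 1.81-fold lower with PA than with BSA (log2 fold change −0.86, SE 0.12, edgeR adjusted p 0.000286), and PA + C3G against PA gave 0.33 (SE 0.12, adjusted p 0.0912), which passed in 2 of 19 alternatives, with adjusted p between 0.0352 and 0.258. Nxt2 was 1.70-fold higher with PA than with BSA (0.77, SE 0.06, adjusted p 2.84e-06) and 1.32-fold lower with PA + C3G than with PA (−0.41, SE 0.06, adjusted p 0.00121), and it stayed above BSA with PA + C3G (0.36, SE 0.06, adjusted p 0.000749). All 3 Nxt2 calls passed in all 19 alternatives. Nxf1, at 47.9 ± 0.542 FPKM with BSA, 37.9 ± 0.428 with PA and 41.0 ± 1.85 with PA + C3G (SD, n = 3), was lower with PA by −0.31 (SE 0.04, adjusted p 0.000132) and higher with PA + C3G than with PA by 0.15 (SE 0.04, adjusted p 0.0256). The second Nxf1 call was lost without any 1 of the PA libraries or PA + C3G replicate 2 or 3, at log2 fold changes from 0.12 to 0.16. It was also lost with both limma fits (0.11 in each, limma adjusted p 0.0778 and 0.0779) and with equal FPKM sums (0.06, edgeR adjusted p 0.348).

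**Figure D5:**
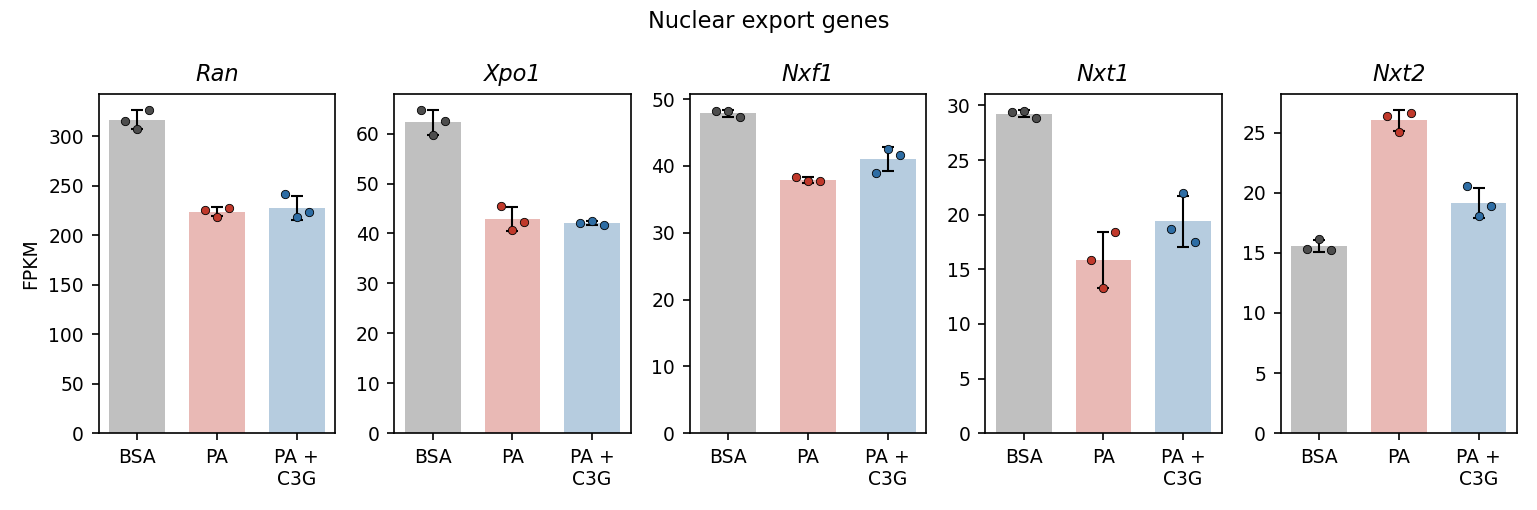
Level in FPKM (y axis, from 0) of the 5 tested nuclear export genes in the BSA, PA and PA + C3G groups. Bars are means, error bars the SD and points the 3 libraries of each group. Ran, Xpo1, Nxf1 and Nxt1 are highest with BSA and Nxt2 is highest with PA.

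Calls for PA against BSA were the most stable of the 3 comparisons. Of the 33 genes called there, 27 kept their call and direction in every refit that tested them at the same expression limit or with none, 8 higher and 19 lower. With PA + C3G against BSA, 20 of 25 did so. Between PA + C3G and PA only 6 of 14 did so, with Eif6 and Nop56 higher and Nob1, Nol6, Nxt2 and Wdr3 lower. The members called lower with PA had a median level of 30.1 FPKM over the 9 libraries, those called higher 18.6 FPKM and those not called 15.6 FPKM.

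Genes that act beside the members, from lists chosen by function, gave counts in both directions as well. Of 15 tested genes for RNA polymerase I and its factors, 5 were higher and 3 lower with PA than with BSA, together 53.3% where 51.0% of all tested genes were called, and with PA + C3G none was higher and 2 were lower than with PA, Znrd1 (−0.41) and Polr1b (−0.19). Of 14 tested genes of the RNA exosome, the 3′ to 5′ nuclease complex that trims precursor RNA, none was higher and 6 were lower with PA, from −0.56 for Exosc8 to −0.19 for Mtrex, while DESeq2 called 2 higher and 6 lower. The 6 made up 42.9% of the exosome list, where edgeR called 25.2% of all tested genes lower. No exosome gene was called between PA + C3G and PA by edgeR, DESeq2 or limma, and 1 had an unadjusted p under 0.05 in edgeR. Of 55 other nucleolar assembly factors, 14 were higher and 13 lower with PA, or 49.1%, again near the 51.0% of all tested genes. With PA + C3G 1 of the 55 was higher (1.82%) and 11 were lower (20%) than with PA, where 11.1% and 10.2% of all tested genes were. Among the 55 factors, Pes1, a large subunit assembly protein, stood at 32.8 ± 2.24 FPKM with BSA, 48.0 ± 2.16 with PA and 34.9 ± 0.986 with PA + C3G (SD, n = 3), with log2 fold changes of 0.58 (edgeR adjusted p 2.82e-05) and −0.42 (adjusted p 0.00130). For PA + C3G against BSA the counts of higher and lower genes were 1 and 3 for RNA polymerase I, 0 and 6 for the exosome, with 8 exosome genes at an unadjusted p under 0.05, and 5 and 14 for the other nucleolar factors. Limma gave 1 higher and 22 lower for the latter and 8 lower for the exosome. In this comparison edgeR called 19.0% of all tested genes higher and 17.9% lower.

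MYC and its partners bind E-boxes and are known regulators of ribosome biogenesis genes. Of 10 MYC network genes, 3 were higher and 2 lower with PA than with BSA, or 50% of them, near the 51.0% of all tested genes. With PA + C3G against PA, edgeR and limma called 3 lower and none higher, and DESeq2 called 3 lower and 2 higher. Over all tested genes edgeR called 10.2% lower and 11.1% higher there. Myc stood at 39.7 ± 2.92 FPKM with BSA, 43.5 ± 1.77 with PA and 26.9 ± 1.96 with PA + C3G (SD, n = 3). Its log2 fold change was 0.16 (edgeR adjusted p 0.0788) for PA against BSA, −0.65 (adjusted p 0.000329) for PA + C3G against PA and −0.50 (adjusted p 0.000331) for PA + C3G against BSA. Mycn, its relative, was lower with PA than with BSA by −0.80 (adjusted p 0.000624). For PA + C3G against BSA, 3 of the 10 were higher and 2 lower, where 36.9% of all tested genes were called.

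RefSeq promoters were found for 60 of the 75 genes, 59 by symbol and 1 by an older symbol, and were searched on both strands in the 250 bases before the start. In 27 of the 60 that start was the outermost RefSeq start of the gene. Motifs were chosen with the results known and a match is a description only. CACGTG was in 10 of the 60 windows (16.7%), where 8.44% of 9214 promoters of tested genes and 5.77% of 27457 rat promoters held it. It was in 4 of the 16 windows of genes lower with PA (Ran, Riok2, Wdr75 and Xrn2), in 0 of 9 of genes higher with PA and in 6 of 32 of genes not called. CCGGAAG was in 26 of 60 windows (43.3%), against 16.2% of promoters of tested genes and 7.78% of all. The letters were in 8 of 16 windows of lower genes, 3 of 9 of higher genes and 14 of 32 of genes not called.

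The other motifs searched were less common or near the level of other genes. CCAAT was in 20 of 60 windows (33.3%), against 35.7% of promoters of tested genes and 34.2% of all. GCATGCGC, a part of the site of NRF1, was in 2 windows (3.33%), those of Nob1 and Sbds, against 5.11% and 2.38%. TTTCGCGC, a form of the E2F site, was in 1 window (1.67%), that of Rexo5, against 0.488% and 0.251%. GCATGCGC and TTTCGCGC share their last letters, GCGC, so matches of them could overlap, but no window of a member held both. No difference between the called classes was tested.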

How the data were processed

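RNA sequencing of 9 INS-1E libraries, 3 per group, was analysed from the deposited table. The authors selected polyadenylated RNA and sequenced strand-specific libraries in paired-end mode. For 20645 genes the authors deposited estimated counts per gene, which are whole numbers without normalization, and FPKM, scaled to gene length and mapped fragments. The submitters' processing notes name cutadapt 1.9, HISAT2 2.0.4, StringTie 1.3.4d, DESeq2 and edgeR without their roles. The genome build of the table is not given in the sources used here, and doses were taken from the methods. All 18 value columns were mapped to a library.

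Genes whose FPKM averaged at least 1 were fitted with edgeR 4.0.16 in R 4.3.3 (TMM, quasi-likelihood test, all 9 libraries, Benjamini-Hochberg adjustment over 12958 genes). The procedure was tested on simulated data whose changes were larger than most of those called among the members. That test does not cover smaller changes. Totals were 45559993 to 66730721 estimated counts per library. FPKM are levels, and fold changes come from the counts. Members and lists were chosen with earlier results of these data known, and 6 role entries were completed after gene names had been read. Genes named are those with the largest changes among called genes whose libraries do not overlap (up to 10, 10 and 5 in the 3 comparisons), the most abundant gene of each role and the core snoRNP genes, and others named beside them were chosen after their values were seen. The alternatives tried were median-ratio size factors, DESeq2 1.42.0, equal FPKM sums, filters of 0 or 5 FPKM, counts divided by 4, limma 3.58.1 on log2(FPKM + 1) or log2(FPKM + 0.1), only the compared groups, the replicate number as a block, and leaving out each library. No set test was run.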

Additional observations from a re-analysis of the deposited data

How the results depend on the processing

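No call among the named genes changed direction in any alternative. Setting every library to the same FPKM sum moved the median log2 fold change of the members to −0.031 for PA against BSA (all genes 0.03), −0.12 for PA + C3G against PA (all genes −0.09) and −0.13 for PA + C3G against BSA (all genes −0.05). The same setting gave 2 higher and 20 lower for PA + C3G against PA and 2 higher for PA + C3G against BSA. Limma with a pseudocount of 1 or 0.1 gave 3 higher and 12 lower for PA + C3G against PA. The medians there were −0.060 and −0.065 (all genes −0.034 and −0.037). For PA + C3G against BSA limma gave 2 higher, with medians of −0.12 and −0.13 (all genes −0.049 and −0.054). The shares of all tested genes called in these refits were not counted. Without a filter, or with only the compared groups in the fit, PA + C3G against BSA had 2 higher. Leaving out each library gave 2 to 7 higher and 4 to 9 lower for PA + C3G against PA, and 2 to 3 higher with medians from −0.109 to −0.065 for PA + C3G against BSA. PA replicates 1, 2 and 3 and PA + C3G replicates 1 and 3 moved the former counts by over 1.5 times. BSA replicate 1 and PA + C3G replicate 2 moved the latter count, to 2 each, and BSA replicates 1 and 3 the latter median, to −0.103 and −0.109. The cause of these shifts was not tested. All other counts stayed within 1.5 times. Outside the setting with equal FPKM sums, the medians for PA against BSA stayed within 1 SD.

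Correlations of same-numbered deviations lay between −0.09 and 0.08, and 5 of 9 libraries correlated best with their own number. With 3 libraries a group, these values cannot decide whether libraries with the same number were paired. With the replicate block, 12 genes were higher and 22 lower for PA against BSA, 8 and 6 for PA + C3G against PA, and 5 and 21 for PA + C3G against BSA.

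Of the refits of named genes, 37 lost and 5 gained the call for PA + C3G against PA, with 471 on the same side, compared with 5 lost, 8 gained and 500 the same for PA against BSA and 15, 10 and 488 for PA + C3G against BSA. Rexo5 was not tested at a mean FPKM of at least 5. Depth limits genes near 1 FPKM most, and 3 libraries a group cannot give a permutation p below 0.1 for a single gene.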
